A study of Mus musculus with 6 samples.

Results

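Interferon response and MHC class I genes were followed across 3 treatments of cultured mouse testis cells. The set is a list of 41 named genes, chosen with earlier results of these data known, though its rule holds no threshold on a measured value. Every array probe whose RefSeq accession maps to one of these genes was used. Of these, 35 had a named probe, and all 35 were detected, which means well above background on every array of 1 group or more, among 14236 genes so detected in the whole series. The other 6 members (Mx1, Mx2, Xaf1, Nlrc5, H2-K1 and H2-D1) had no probe named through the accession table and were not analysed here, so the classical class I heavy chains are missing from what follows. Of the tested members, 32 were well above background on all 6 arrays. The exceptions were Oas3 and Ifi44, each above background on 5 arrays, and Oas2, above it only on the 2 bFGF arrays.

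The cultures carry the label of primary Sertoli cells and come from the C57BL/6J strain. They were kept at 34 °C in a medium with epidermal growth factor (EGF) at 5 ng/ml, transferrin at 5 µg/ml and insulin at 10 µg/ml, which all groups shared, controls included. From day 5 they received vehicle, basic fibroblast growth factor (bFGF, 20 ng with no volume stated) or 10 µM PD0325901, an inhibitor of the kinases MEK1 and MEK2, for 24 h. Each group had 2 samples, each hybridised to its own 1-colour array, and the labels give neither the age of the mice nor the origin of a group's samples from separate animals or cultures. The p-values thus reflect no more than the spread of these samples, possibly a technical one.

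The Sertoli cell markers Sox9, Wt1 and Gata4 were well above background on every array, and so were Lyz2, Csf1r and Ptprc of macrophages and other leukocytes and Cd3e of T cells. Of 11 lymphocyte and natural killer cell markers with a named probe, 8 were detected, Cd3g only on the bFGF arrays. Ms4a1, Ncr1 and Gzma were not detected. The 75th percentile of the signal, to which each array was scaled, lay between 1464 and 1613. The 3 groups lay on 3 slides, 1 group per slide, and effects of slide and of treatment cannot be told apart. Of all probes, 75.6% and 75.9% were well above background on the bFGF arrays, against 64.9% to 66.6% on the other 4. As a check of the inhibitor, all 10 listed outputs of the MEK and ERK pathway were lower under PD0325901 than in vehicle, among them Dusp6, an ERK phosphatase, by a log2 difference of -6.07 ± 0.07 (SE, n = 2 arrays per group). Under bFGF, 3 of the 10 fell (Fos by 0.62 ± 0.05, Ccnd1 by 0.55 ± 0.05 and Etv4 by 0.50 ± 0.05) and the other 7 did not pass. For comparison, 29.3% of all genes were called lower under PD0325901 and 7.28% under bFGF. In RNA from a mixed culture, fewer cells of one type and less RNA per cell cannot be told apart.

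Interferons are secreted proteins that warn cells of viral infection. Type I interferons bind the Ifnar receptors, and the Janus kinases there activate a complex with Stat2 and Irf9 that binds the interferon-stimulated response element (ISRE) in its target promoters. Interferon gamma acts through the gamma-activated site (GAS), in part by inducing Irf1. The targets include sensors of viral RNA, enzymes that block viral growth, and the proteasome subunits, peptide transporters and chains that display peptides on MHC class I. Sertoli cells form the wall that shields germ cells from the immune system, and they can respond to interferon.

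The promoters of the members show what the list shares in sequence. RefSeq windows (build GRCm38.p6) that run from 250 bases before to 50 after the transcript start were found for 31 of the 35 tested members. The core of the ISRE was searched as 2 copies of GAAA on 1 strand separated by any 2 bases, on both strands. It occurred in a window of 15 of the 31 members (48.4%), against 3.99% of all 27025 genes with such a window. The GAS, searched as TTCNNNGAA, occurred in 10 of the 31 members (32.3%), against 9.55% of all genes. The letters GGGATTCCC, the centre of the NF-kB site in enhancer A of class I genes, were in the windows of H2-K1 and H2-D1, in 1 tested member (Irf1) and in 0.414% of all genes. A match says that the letters are there, not that a factor binds. The stretches below lie upstream of the start and are shown because they carry the core in members whose signals are described next. Capitals mark every base of an ISRE core, and each line reads 5′ to 3′ along the gene's strand.
Isg15, chr4:156200855-156200916, minus strand: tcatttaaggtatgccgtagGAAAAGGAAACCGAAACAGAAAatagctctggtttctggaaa
Ifit1, chr19:34640765-34640833, plus strand: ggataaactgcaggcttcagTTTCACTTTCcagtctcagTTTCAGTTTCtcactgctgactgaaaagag
Ifit3, chr19:34583353-34583436, plus strand: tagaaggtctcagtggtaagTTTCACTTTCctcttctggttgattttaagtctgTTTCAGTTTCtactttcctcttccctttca
Rsad2, chr12:26456543-26456592, minus strand: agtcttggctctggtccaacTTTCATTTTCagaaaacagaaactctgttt
Gbp2, chr3:142620584-142620633, plus strand: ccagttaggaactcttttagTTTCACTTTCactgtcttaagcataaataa
Gbp3, chr3:142559979-142560034, plus strand: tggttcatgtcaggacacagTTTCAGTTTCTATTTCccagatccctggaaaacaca
Bst2, chr8:71537567-71537622, minus strand: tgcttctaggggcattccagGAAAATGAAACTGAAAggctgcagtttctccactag
Stat2, chr10:128270256-128270305, plus strand: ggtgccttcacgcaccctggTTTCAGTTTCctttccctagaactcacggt
B2m, chr2:122147528-122147577, plus strand: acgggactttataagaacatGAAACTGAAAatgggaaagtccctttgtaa

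Isg15 held 3 overlapping cores in a row, from base -78 to base -57 relative to the start, whereas Ifit1 and Ifit3 each held 2 separate ones. The core nearest to the start among these lines was that of Gbp3, which ended at base -30. In Ddx58, Ifih1, Eif2ak2 and Ifitm3 the cores lay after the start.

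**Figure D1:**
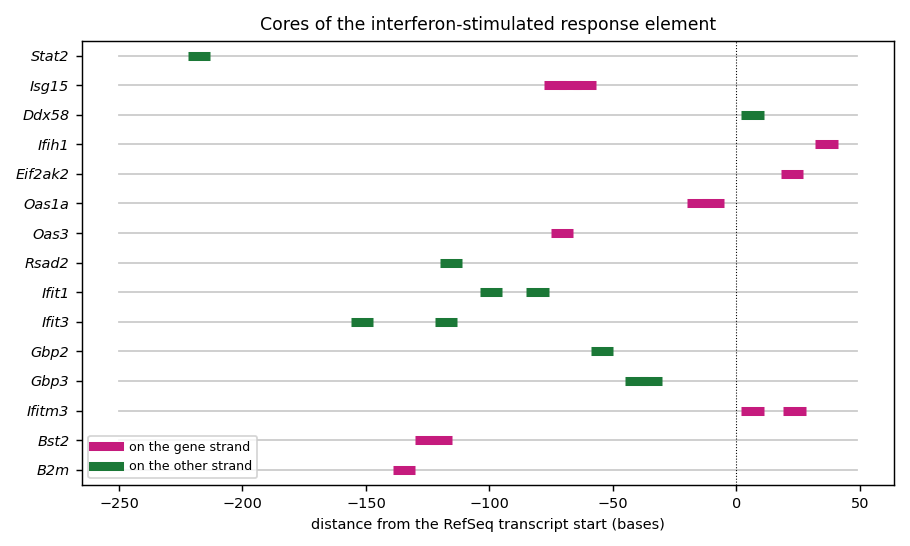
Position of each ISRE core in the windows of the 15 tested members that hold one, as the distance in bases from the RefSeq transcript start (dotted line at 0). Grey lines are the window, and colours give the strand of the GAAA copies. In 4 members all cores lie after the start.

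MEK inhibition was compared with vehicle to ask which genes of the interferon programme change when ERK signalling is blocked in cells that receive EGF. Under PD0325901, 20 of the 35 tested members rose and 5 fell, while 10 did not pass the test (limma, Benjamini-Hochberg adjusted p under 0.05 over all genes). Over all 14236 genes, 24.1% were called higher and 29.3% lower. The members' median log2 difference was 0.37, against -0.05 for all tested genes, and 30 of the 35 differences were above 0. Without PD0325901 replicate 2 the count of higher members was 13. The count of lower members was 3 without PD0325901 replicate 1, PD0325901 replicate 2 or vehicle replicate 1. Of the 25 calls, 14 passed under every alternative run: the rises of Irf7, Usp18, Ddx58, Ifih1, Oas1a, Oasl2, Rsad2, Gbp2, Gbp3, Bst2 and Tapbp and the falls of Irf3, Irf8 and Trim25.

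bFGF was compared with vehicle to ask which of these genes respond to added growth factor in the same medium. Under bFGF, 10 members rose and 1 fell, while 24 did not pass, against 12.6% of all genes called higher and 7.28% called lower. The median difference was 0.26 for the members and 0.03 for all tested genes, and 32 of the 35 differences were above 0. The individual bFGF calls rest on both arrays of each group. Without bFGF replicate 2, limma called 0 genes of the whole table, against 3741 at an unadjusted p under 0.05, and without bFGF replicate 1 only 1 member was called higher (Psmb9). Of the 10 rises, only those of Gbp2 and Psmb9 passed without vehicle replicate 1, and only those of Oasl2 and Psmb9 without vehicle replicate 2.

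**Figure D2:**
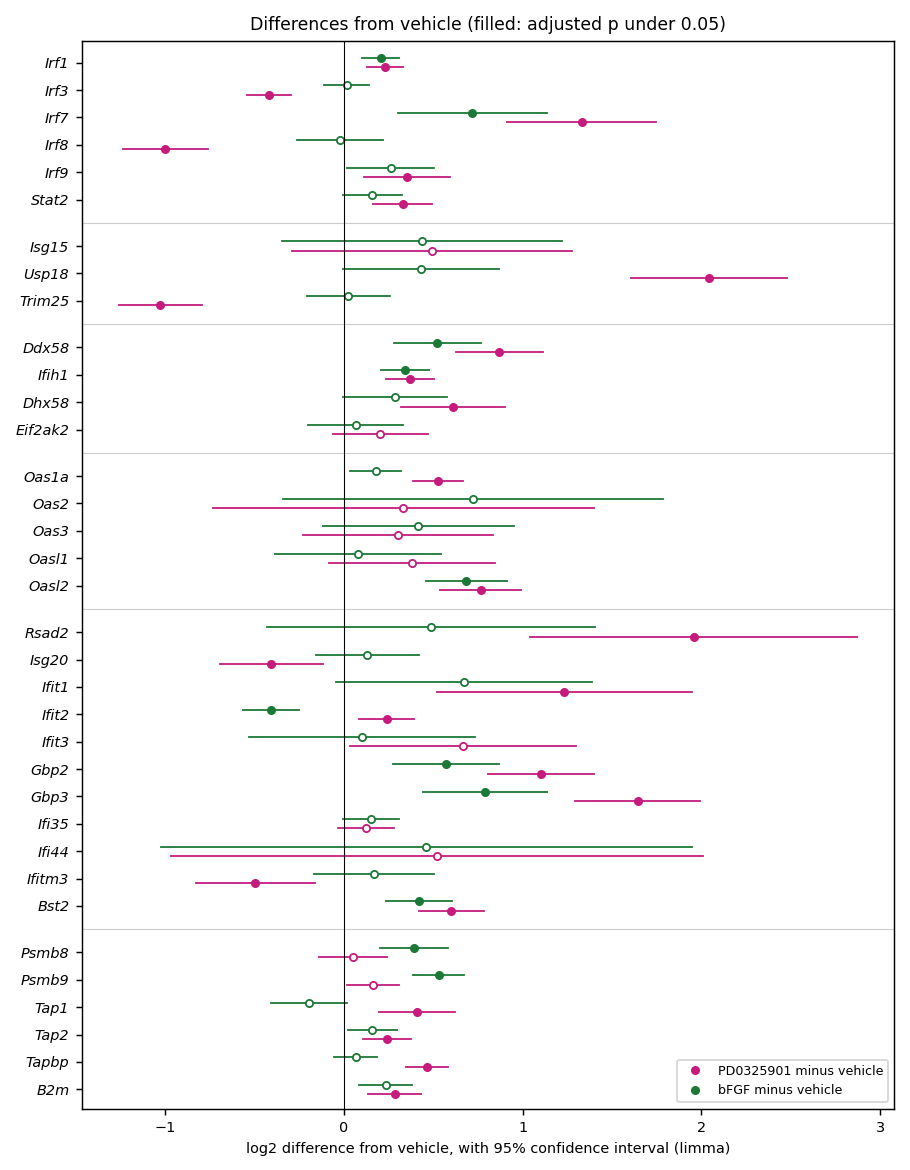
Log2 difference from vehicle for each of the 35 tested members, with limma's 95% confidence interval, for PD0325901 (magenta) and bFGF (green). Filled points passed the test. Usp18 and Rsad2 lie farthest to the right under PD0325901, near 2, whereas no bFGF difference exceeds 0.79.

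Signals below are log2 values relative to the array's 75th percentile, and they compare 1 gene across arrays, not genes with each other. Transcription factors of the pathway come first. Irf7, the factor that amplifies type I interferon production, had signals of -3.18 and -3.13 on the vehicle arrays, -2.51 and -2.37 under bFGF and -2.04 and -1.61 under PD0325901. The 3 groups did not overlap, with vehicle lowest and PD0325901 highest. Irf7 rose by 1.33 ± 0.16 under PD0325901 (SE, adjusted p = 0.00309) and by 0.72 ± 0.16 under bFGF (adjusted p = 0.0438).

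Irf1, which carries the response to interferon gamma, gave 2.19 and 2.22 in vehicle, 2.40 and 2.42 under bFGF and 2.42 and 2.45 under PD0325901. Both treatments lay above vehicle, and the treated groups were close to each other: Irf1 rose by 0.23 ± 0.04 under PD0325901 and by 0.20 ± 0.04 under bFGF. Its other detected probe differed by 0.12 and 0.18. Without PD0325901 replicate 1 or PD0325901 replicate 2, the inhibitor rises of Irf1, Irf9, Ifit2, Tap2 and B2m did not pass, and without PD0325901 replicate 2 those of Stat2 and Dhx58 did not either. Irf9, the DNA-binding partner of Stat2, gave -0.74 and -0.51 in vehicle, -0.33 and -0.39 under bFGF and -0.30 and -0.24 under PD0325901. It rose by 0.35 ± 0.09 under the inhibitor (adjusted p = 0.0310) and differed by 0.26 ± 0.09 under bFGF, which did not pass (adjusted p = 0.110). Stat2 gave -0.19 and -0.20 in vehicle, 0.01 and -0.09 under bFGF and 0.08 and 0.18 under PD0325901, a rise of 0.33 ± 0.06 under the inhibitor (adjusted p = 0.0119) beside a bFGF difference of 0.16 ± 0.06 (adjusted p = 0.133).

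The other transcription factors fell. Irf8, a factor of myeloid and lymphoid cells, gave -1.64 and -1.65 in vehicle, -1.79 and -1.54 under bFGF and -2.66 and -2.63 under PD0325901. The inhibitor arrays lay below all others and the bFGF values lay on both sides of vehicle. Irf8 fell by 1.001 ± 0.09 under PD0325901 (adjusted p = 0.00143). Its other detected probe fell by 0.99. Irf3, the constitutive factor that switches on interferon genes after infection, fell by 0.42 ± 0.05 under the inhibitor and differed by 0.01 ± 0.05 under bFGF.

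Next come the ISG15 system and its feedback. Usp18, the protease that removes Isg15 from proteins and restrains receptor signalling, had the largest rise of the list under the inhibitor. Its signals were -2.80 and -2.46 in vehicle, -2.25 and -2.15 under bFGF and -0.75 and -0.43 under PD0325901. Usp18 was 4.12-fold higher than in vehicle under the inhibitor (2.04 ± 0.16, adjusted p = 0.00106), while its bFGF difference of 0.43 ± 0.16 did not pass (adjusted p = 0.131). Isg15 itself, a ubiquitin-like protein attached to other proteins, did not pass in either comparison: it gave -1.93 and -2.06 in vehicle, -1.64 and -1.48 under bFGF and -1.93 and -1.08 under PD0325901. The 2 inhibitor arrays of Isg15 spanned a wider range than all other arrays together, which left an SE of 0.29. Trim25, a ubiquitin ligase that activates the RNA sensor encoded by Ddx58, went the other way, with 2.75 and 2.51 in vehicle, 2.65 on both bFGF arrays and 1.60 on both inhibitor arrays. Trim25 fell by 1.03 ± 0.09 under PD0325901 (adjusted p = 0.00121), and its other detected probe fell by 1.15.

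Of the 4 RNA sensors, 3 rose under the inhibitor, 2 of them under bFGF too, and 1 passed in neither comparison. Among all genes, 24.1% were called higher under the inhibitor, 12.6% under bFGF and 3.65% under both. Ddx58 (RIG-I), which detects short double-stranded viral RNA, gave -2.87 on both vehicle arrays, -2.25 and -2.44 under bFGF and -2.08 and -1.92 under PD0325901. It rose by 0.87 ± 0.09 under the inhibitor and by 0.52 ± 0.09 under bFGF (adjusted p = 0.00222 and 0.0286), and its other 2 detected probes differed from vehicle in the same direction. With the mean of all 3 probes the bFGF rise of Ddx58 did not pass. Ifih1 (MDA5), which detects long double-stranded RNA, gave -0.39 and -0.37 in vehicle, -0.06 and -0.01 under bFGF and -0.06 and 0.04 under the inhibitor. The treated arrays of Ifih1 overlapped with one another and lay above vehicle, with rises of 0.37 ± 0.05 under PD0325901 and 0.34 ± 0.05 under bFGF. A dim second probe of Ifih1, above background on 2 arrays, differed by 0.41 and 1.27. Dhx58 (LGP2), a regulator of the other RNA sensors, gave -2.89 and -3.08 in vehicle, -2.77 and -2.63 under bFGF and -2.47 and -2.28 under PD0325901, a rise of 0.61 ± 0.11 under the inhibitor (adjusted p = 0.0105) beside a bFGF difference of 0.29 ± 0.11 (adjusted p = 0.132). Eif2ak2 (PKR), which stops translation when it binds double-stranded RNA, did not pass in either comparison (0.20 ± 0.10 and 0.07 ± 0.10).

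The 2'-5' oligoadenylate synthetases make a small messenger when they bind double-stranded RNA, and some of their relatives lack that activity. Oasl2 had signals of 0.17 and 0.20 in vehicle, 0.82 and 0.92 under bFGF and 0.85 and 1.05 under PD0325901. Both treatments were well separated from vehicle and overlapped each other: Oasl2 rose by 0.77 ± 0.08 under the inhibitor and by 0.68 ± 0.08 under bFGF (adjusted p = 0.00260 and 0.0158). Oas1a rose under the inhibitor, by 0.53 ± 0.05 (adjusted p = 0.00201), with a bFGF difference of 0.18 ± 0.05 (adjusted p = 0.0838). Oas1a has near-identical copies in the mouse genome that may share its signal. Oas2, Oas3 and Oasl1 did not pass in either comparison. Oas2 gave -7.17 and -7.12 in vehicle, -6.60 and -6.25 under bFGF and -7.38 and -6.24 under PD0325901, and it was not well above background on the vehicle and inhibitor arrays, so no fold is given.

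Among the antiviral effectors, Rsad2 (viperin), which makes a nucleotide that ends viral RNA chains, gave -4.94 and -4.84 in vehicle, -4.72 and -4.08 under bFGF and -3.33 and -2.54 under PD0325901. Its inhibitor arrays were the highest, and it rose by 1.96 ± 0.34 (3.88-fold, adjusted p = 0.0100). The bFGF difference of 0.49 ± 0.34 did not pass (adjusted p = 0.349). Rsad2 had 2 dimmer probes, each above background on 4 arrays, which differed by 1.77 and 1.21 under the inhibitor and by 0.65 and 1.18 under bFGF. Ifit1, which binds viral RNA that lacks the host's cap, gave -5.04 and -5.02 in vehicle, -4.39 and -4.33 under bFGF and -4.19 and -3.40 under PD0325901. Ifit1 rose by 1.23 ± 0.27 under the inhibitor (adjusted p = 0.0187). Its bFGF arrays lay above vehicle too, yet the difference of 0.67 ± 0.27 did not pass (adjusted p = 0.143). Without vehicle replicate 1 or vehicle replicate 2, the Ifit1 rise under the inhibitor did not pass.

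Ifit2, a relative of Ifit1, was the only member that fell under bFGF. It gave -1.64 and -1.58 in vehicle, -1.96 and -2.08 under bFGF and -1.38 and -1.37 under PD0325901. The groups did not overlap: Ifit2 fell by 0.41 ± 0.06 under bFGF and rose by 0.24 ± 0.06 under the inhibitor. Its other detected probe differed by -0.18 and 0.11. The bFGF fall did not pass without bFGF replicate 2, vehicle replicate 2, PD0325901 replicate 1 or PD0325901 replicate 2, and the inhibitor rise did not pass without either vehicle array. Ifit3 differed by 0.67 ± 0.24 under PD0325901 and did not pass (adjusted p = 0.0732), and a near-identical copy may share its signal.

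The guanylate-binding proteins Gbp2 and Gbp3 are large GTPases that attack vacuoles of intracellular pathogens. Gbp3 gave -1.74 and -1.58 in vehicle, -0.98 and -0.75 under bFGF and -0.14 and 0.11 under PD0325901. Gbp2 gave -1.36 and -1.63, then -0.98 and -0.87, then -0.46 and -0.33, in the same order. In both genes the 3 groups were ordered vehicle, bFGF, PD0325901 without overlap. Gbp3 rose by 1.64 ± 0.13 and 0.79 ± 0.13 (adjusted p = 0.00104 and 0.0258), and Gbp2 by 1.10 ± 0.11 and 0.57 ± 0.11 (adjusted p = 0.00202 and 0.0356). Bst2 (tetherin), which holds budding virus at the cell surface, gave 2.20 and 2.22 in vehicle, 2.59 and 2.67 under bFGF and 2.73 and 2.89 under PD0325901, with rises of 0.60 ± 0.07 and 0.42 ± 0.07.

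Not all effectors rose. Ifitm3, a membrane protein that blocks entry of viruses, fell by 0.50 ± 0.13 under PD0325901, and Isg20, an exonuclease that degrades RNA, fell by 0.41 ± 0.11 (adjusted p = 0.0288 and 0.0334). Neither fall passed without PD0325901 replicate 1, PD0325901 replicate 2 or vehicle replicate 1. That of Isg20 did not pass without vehicle replicate 2 either, nor that of Ifitm3 without bFGF replicate 1 or bFGF replicate 2, which enter the shared variance. Ifi35 and Ifi44 did not pass in either comparison. The inhibitor values of Ifi44 were far apart, at -5.96 and -4.45.

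**Figure D3:**
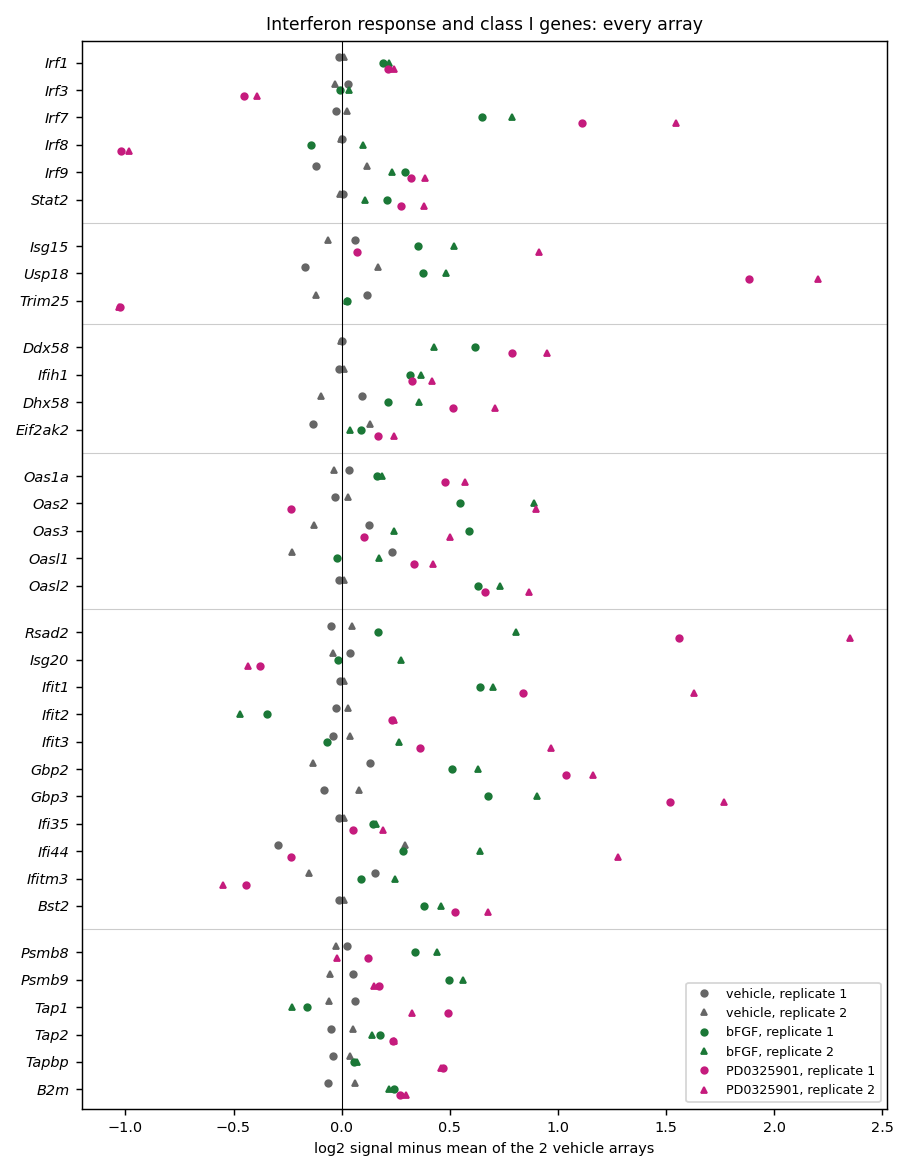
Log2 signal of each tested member on every array, minus the mean of its 2 vehicle arrays, grouped by role from transcription factors (top) to class I antigen presentation (bottom). Circles are replicate 1 and triangles replicate 2. For Isg15, Rsad2, Ifit1, Ifit3 and Ifi44 the triangle of PD0325901 lies well to the right of its circle.

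The 2 inhibitor arrays differed from each other more in these genes than in most. PD0325901 replicate 2 was above replicate 1 for 28 of the 35 members (80%), against 51% of all genes. The median absolute difference between the 2 arrays was 0.13 for the members and 0.05 for all genes. Under bFGF, replicate 2 was above replicate 1 for 25 members (71.4%, against 58.6% of all genes), and in vehicle for 19 (54.3%, against 46.3%). These spreads enter every SE given here.

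Class I molecules carry peptides that the immunoproteasome cuts, that Tap1 and Tap2 pump into the endoplasmic reticulum, and that tapasin (Tapbp) helps to load. B2m, the light chain of every class I molecule, gave 5.12 and 5.24 in vehicle, 5.42 and 5.40 under bFGF and 5.45 and 5.48 under PD0325901. All treated arrays lay above both vehicle arrays: B2m rose by 0.28 ± 0.06 under the inhibitor (adjusted p = 0.0143), and its bFGF difference of 0.23 ± 0.06 did not pass (adjusted p = 0.0540). Its other detected probe differed by 0.22 and 0.09.

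Of the 6 tested class I genes, 4 rose under the inhibitor (Tap1, Tap2, Tapbp and B2m) and the other 2 (Psmb8 and Psmb9) rose under bFGF. The shares of all genes called higher were 24.1% under the inhibitor and 12.6% under bFGF. Tap2 and B2m did not differ between the treatments in the direct test at the threshold. Psmb9 (LMP2) gave 1.04 and 0.93 in vehicle, 1.48 and 1.55 under bFGF and 1.16 and 1.13 under PD0325901. Psmb8 (LMP7) gave 1.554 and 1.502 in vehicle, 1.87 and 1.97 under bFGF and 1.65 and 1.51 under PD0325901. In both genes the bFGF arrays lay above the other 4, with rises of 0.53 ± 0.05 and 0.39 ± 0.07 (adjusted p = 0.0118 and 0.0312), while the inhibitor differences of 0.16 ± 0.05 and 0.05 ± 0.07 did not pass (adjusted p = 0.0644 and 0.588). The other detected probe of Psmb8 differed by 0.30 under the inhibitor and 0.46 under bFGF. The bFGF call of Psmb8 was lost under 8 of 17 settings, among them each omission of 1 array. Tap1 gave -1.17 and -1.29 in vehicle, -1.39 and -1.46 under bFGF and -0.74 and -0.90 under PD0325901, a rise of 0.41 ± 0.08 under the inhibitor beside a bFGF difference of -0.19 ± 0.08 that did not pass. The Tap1 rise did not pass without PD0325901 replicate 1 or vehicle replicate 2. Tapbp gave 4.95 and 5.02 in vehicle, 5.04 and 5.06 under bFGF and 5.46 and 5.44 under PD0325901, a rise of 0.46 ± 0.04 under the inhibitor. Tap2 rose by 0.24 ± 0.05 under the inhibitor and differed by 0.16 ± 0.05 under bFGF (adjusted p = 0.0171 and 0.0932).

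**Figure D4:**
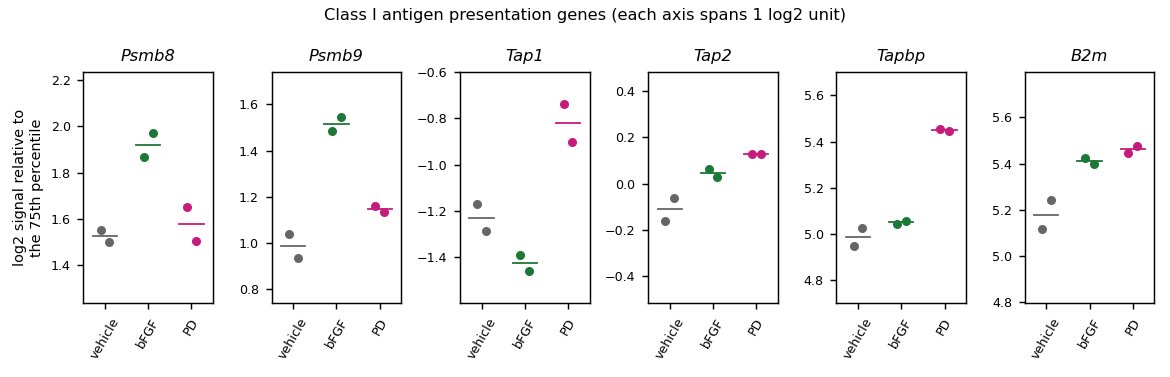
Log2 signal, relative to the array's 75th percentile, of the 6 tested class I antigen presentation genes on each array (points) with group means (lines). Each panel spans 1 log2 unit. Psmb8 and Psmb9 are highest under bFGF, whereas Tap1 and Tapbp are highest under PD0325901.

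The 2 treatments were then set against each other directly. The difference does not use the vehicle arrays, but its SE and p-value do, through the shared variance. Under PD0325901, 10 members were higher and 7 lower than under bFGF, and 18 did not pass, against 25.4% of all genes called higher and 36.6% called lower. The median difference was 0.09 for the members and -0.08 for all tested genes. Usp18 (1.61 ± 0.16), Rsad2 (1.47 ± 0.34), Gbp3 (0.85 ± 0.13) and Ifit2 (0.65 ± 0.06) were the farthest above bFGF. Trim25 (-1.05 ± 0.09) and Irf8 (-0.98 ± 0.09) were the farthest below it.

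**Figure D5:**
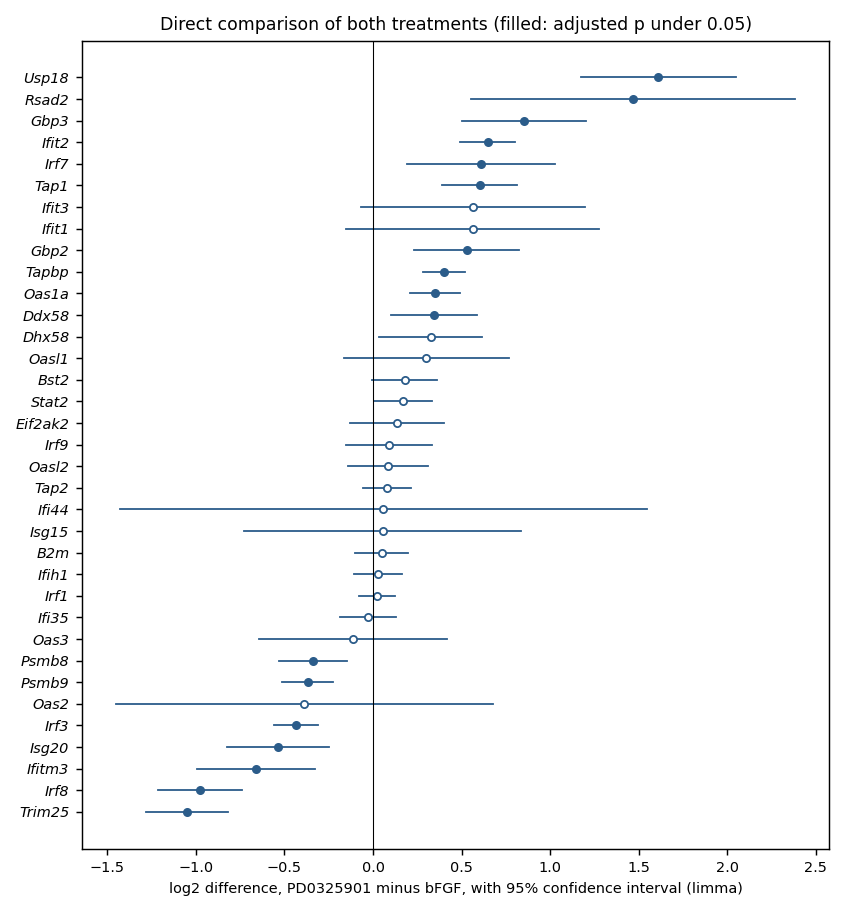
Log2 difference between PD0325901 and bFGF for the 35 tested members, sorted, with limma's 95% confidence interval. Filled points passed the test, 10 above 0 and 7 below.

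A rise counted as shared where a member passed as higher in both comparisons with vehicle, which share the vehicle arrays. There were 8 such members, Irf1, Irf7, Ddx58, Ifih1, Oasl2, Gbp2, Gbp3 and Bst2, against 3.65% of all genes. Of these 8, only Gbp2 passed in both comparisons without vehicle replicate 1, and only Oasl2 without vehicle replicate 2. None of them did without bFGF replicate 1 or bFGF replicate 2. In 4 of the 8 (Irf7, Ddx58, Gbp2 and Gbp3) the rise was larger under PD0325901 than under bFGF in the direct test, which only Gbp3 of these passed without each single array. In the other 4 the direct difference did not pass: its 95% interval was -0.08 to 0.13 for Irf1, -0.11 to 0.16 for Ifih1, -0.14 to 0.31 for Oasl2 and -0.0034 to 0.36 for Bst2.

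A rise counted as particular to PD0325901 where the member was higher than in vehicle and also higher than under bFGF. There were 10 such members, Irf7, Usp18, Ddx58, Oas1a, Rsad2, Ifit2, Gbp2, Gbp3, Tap1 and Tapbp, against 19.8% of all genes, and 4 of them were also among the shared rises. The count was 6 without PD0325901 replicate 2 or without vehicle replicate 2. Rsad2 did not pass against bFGF with the mean of all its detected probes, nor without bFGF replicate 1 or PD0325901 replicate 2. Only Psmb8 and Psmb9 were higher under bFGF than in vehicle and than under PD0325901, against 8.94% of all genes. Of that pair, 1 was left without any 1 of the arrays other than bFGF replicate 2, and 0 without that one. The remaining 6 members that rose under the inhibitor (Irf9, Stat2, Dhx58, Ifit1, Tap2 and B2m) passed neither under bFGF nor in the direct comparison, so these data do not place them in either class. The 5 members that fell under PD0325901 were also lower there than under bFGF. The remaining 8 members (Isg15, Eif2ak2, Oas2, Oas3, Oasl1, Ifit3, Ifi35 and Ifi44) passed in none of the 3 comparisons.

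Members with and without an ISRE core in their window were described side by side. Of the 15 with a core, 10 rose and 1 fell under the inhibitor, with a median difference of 0.53. Of the 16 with a window but no core, 7 rose and 4 fell, with a median of 0.23. Under bFGF, 5 of the 15 and 5 of the 16 rose. Over all genes, 24.1% were called higher and 29.3% lower under the inhibitor, and 12.6% higher under bFGF. Of the 8 that rose under both, 5 held a core (Ddx58, Ifih1, Gbp2, Gbp3 and Bst2), and Irf1, Irf7 and Oasl2 held none in this window.

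The rest of the pathway was read from fixed lists, whose counts stand against the same shares of all genes (24.1% higher and 29.3% lower under the inhibitor, 12.6% higher and 7.28% lower under bFGF). Of 15 interferon receptor, kinase and regulator genes, 7 rose and 5 fell under PD0325901. Jak2, a kinase of the gamma receptor, rose by 0.67 ± 0.06. Socs3, an inhibitor of Janus kinase signalling, fell by 1.10 ± 0.04. Under bFGF 3 of the 15 rose. Of 15 nucleic acid sensing genes, 2 rose and 4 fell under the inhibitor, no larger shares than over all genes. Cgas, the sensor of cytosolic DNA, was among those that fell, by 0.91 ± 0.06.

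Interferon genes themselves were detected in part. Of 13 with a named probe, 6 were not well above background on both arrays of any group, including Ifnb1 and Ifng. Of the 7 tested, 1 rose and 1 fell under PD0325901 and 2 rose under bFGF. Ifnl3, among the bFGF rises, was well above background only on the bFGF arrays. It entered the test through those arrays alone, so its rise is no separate evidence. The Ifna genes resemble each other closely, and the bFGF arrays had the larger share of all probes above background given earlier.

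Other interferon-stimulated genes were counted apart from the members. Of 37 tested, 18 rose and 5 fell under PD0325901, with a median difference of 0.26. Iigp1, a GTPase directed at vacuoles, rose by 2.17 ± 0.09 and Cmpk2, a mitochondrial nucleotide kinase beside Rsad2 in the genome, by 1.72 ± 0.06. Ifi47, another interferon-induced GTPase, fell by 2.38 ± 0.06. Under bFGF 10 rose and 1 fell, among them Lgals3bp (1.02 ± 0.10), a secreted glycoprotein, and Rtp4 (0.78 ± 0.15). Of 16 other class I presentation genes, 7 rose and 1 fell under PD0325901 and 4 rose under bFGF. The fall was that of H2-T24, which was well above background only on the bFGF arrays. It thus compares inhibitor and vehicle arrays that all lacked a clear signal, and it is not read as a change. Psmb10, the third immunoproteasome subunit, rose under both treatments, by 0.33 ± 0.05 under PD0325901 and 0.44 ± 0.05 under bFGF. The nonclassical heavy chain genes H2-T23 and H2-Q7, whose probes may share signal with other class I genes, rose by 0.28 ± 0.07 and 0.25 ± 0.06 under PD0325901. Their bFGF differences were of similar size, 0.29 ± 0.07 and 0.25 ± 0.06, but did not pass (limma adjusted p = 0.0615 and 0.0532). Neither gene passed in the direct comparison of the treatments. Class II genes moved both ways: of 10 tested, 3 rose and 2 fell under the inhibitor, and Ciita, the class II transactivator, fell by 1.91 ± 0.17.

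Markers of immune cells, which also express many of the members, were measured on the same arrays. Counts below stand against the same shares of all genes: 24.1% higher and 29.3% lower under the inhibitor, 12.6% higher and 7.28% lower under bFGF. Of 16 macrophage and dendritic cell markers, 6 fell and 2 rose under PD0325901, and 1 (Lyz2) fell under bFGF. Their summed signal, in units of the 75th percentile, was 13.8 to 15.0 in vehicle, 10.4 to 11.2 under bFGF and 9.90 to 10.1 under PD0325901, but Lyz2, a lysozyme of macrophages, made up most of it. Without Lyz2 the sum of the other 15 was 5.32 to 5.47, 5.08 to 5.24 and 4.51 to 4.56 in the same order. Lyz2 fell by 0.72 ± 0.09 under the inhibitor and by 0.67 ± 0.09 under bFGF. The largest falls under the inhibitor were those of C1qa (1.54 ± 0.20) and Itgax (1.35 ± 0.06), and Ptprc (CD45) fell by 0.35 ± 0.11. The 2 that rose were Aif1, by 0.61 ± 0.06, and Cd163, a scavenger receptor that was not well above background in vehicle and was at least 2.87-fold higher (adjusted p = 0.0121), while Csf1r differed by -0.84 ± 0.28 and did not pass (adjusted p = 0.0616). Itgam and Siglech were not well above background on both arrays of any group. Of 8 lymphocyte and natural killer cell markers, 4 fell under the inhibitor and 3 rose under bFGF. Their signals summed to 0.203 to 0.221 in vehicle, 0.331 to 0.348 under bFGF and 0.129 to 0.142 under PD0325901. These sums are low, and Cd3g entered the list only through the bFGF arrays. Those arrays had the larger share of all probes above background given earlier, so the bFGF counts and sums are not read as a change in cells. Endothelial markers summed to 1.80 to 2.11 in vehicle, 1.85 to 1.98 under bFGF and 0.953 to 1.07 under PD0325901. Peritubular myoid markers summed to 62.1 to 66.6, 63.9 to 70.6 and 91.7 to 92.3 in the same order. Germ cell markers summed to 13.3 to 15.3, 20.2 to 25.0 and 16.7 to 16.9, and 5 of 9 rose under bFGF while 2 rose and 2 fell under the inhibitor. Leydig cell markers summed to 26.8 to 27.7, 26.6 to 29.7 and 22.8 to 22.9, and 3 of 6 fell under the inhibitor while 1 fell under bFGF. Their part in the members' differences was not tested.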

How the data were processed

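Scanner files of 6 arrays held spot intensity written by Agilent Feature Extraction 9.5, per the submitters' processing notes; the deposited intensity is background-subtracted and spatially detrended within each array, per the file headers. Processed signals were put on the log2 scale, the 75th percentile of the array was subtracted, and spots of a probe were averaged once control and outlier spots had been left out. No spot was saturated. Probes were named through RefSeq accessions in a table of assembly GRCm38.p6 (23374 of 41174 probes), and the brightest detected probe stood for its gene. The 3 groups were compared with limma 3.58.1 in R 4.3.3 (1 model, 6 arrays, 3 residual degrees of freedom). P-values were adjusted by Benjamini and Hochberg's method across 14236 genes, and 0.05 was the threshold. The model was tested on simulated data.

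The deposited table of log2 values equals the scanner differences between arrays within 0.001 for 100% of values and is centred on each probe's median over the 6 arrays in 100% of probes, so each probe's level is unknown in it. The medians of its columns were, for PD0325901, -0.107 and -0.0123, for bFGF 0.00512 and 0.00437, and for vehicle 0.0195 and 0.018. This table was run as an alternative. The normexp alternative used median spot signals, since mean spot signals were not among the columns.

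Members and lists were chosen with earlier results of these data known. Array values are given for the 12 members with the largest passing difference in each comparison with vehicle and for B2m, Irf9 and Stat2. From the other lists, genes among the 3 largest passing differences were named, with defining markers. Members outside that rule, and H2-T23, H2-Q7, Ifng, Itgam, Siglech, Aif1 and Cd163, were named after their values were seen. The same holds for C1qa, Itgax, Cd3g, Ms4a1, Ncr1 and Gzma. Precision is limited by the number of arrays, and the median SE of a difference was 0.07 on the log2 scale. The macrophage sum without Lyz2 was added after seeing the data. A bound ("at least") sets the brighter group against the lowest signal well above background on each array of the dim group, or the probe's own signal there if higher.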

Additional observations from a re-analysis of the deposited data

How the results depend on the processing

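No called difference changed sign under the 17 settings run. With the mean of all detected probes, Ifih1 was lower under PD0325901 than under bFGF (-0.42, adjusted p = 0.00334 by limma), against 0.03 and not passed with its brightest probe. That mean includes a dim probe above background on 2 arrays. Fitting only the 4 arrays compared left 0 members lower under bFGF and 1 particular to bFGF. The other settings kept the counts of called members within 1.5 times.

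The shared replicate numbers were not shown to pair the samples: deviations of same-numbered arrays correlated at -0.077 (vehicle and bFGF), 0.12 (vehicle and PD0325901) and -0.117 (bFGF and PD0325901). With the replicate block, 3 members were lower under PD0325901 than in vehicle, 5 were higher and 0 lower under bFGF, 4 were higher in both and 1 was particular to bFGF. The other counts stayed within 1.5 times.

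Leaving out each array in turn gave 13 to 20 members higher and 3 to 4 lower under PD0325901 than in vehicle, 0 to 7 higher and 0 to 1 lower under bFGF, 7 to 13 higher and 5 to 7 lower under PD0325901 than under bFGF, 0 to 6 higher in both, 6 to 11 particular to PD0325901 and 0 to 1 particular to bFGF. A group left with 1 array was assumed to vary like the others. Under every setting, 14 of 25 calls passed for PD0325901 against vehicle, 10 of 17 for PD0325901 against bFGF and 0 of 11 for bFGF against vehicle. The slide could not be fitted as a block, because each slide holds 1 group, and normexp was run on median spot signals. Signal over background limits Oas2, Oas3 and Ifi44.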
